A study of Mus musculus with 7 samples.

Results

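Carotenoid cleavage and retinoid handling was followed through 10 genes of the duodenal expression table, out of 14795 genes listed there. The genes were Scarb1, Bcmo1, Bco2, Isx, Rbp2, Lrat, Rdh7, Dhrs3, Aldh1a1 and Stra6, matched by symbol, with the gene now called Bco1 standing under its older symbol Bcmo1. Of these, 8 were listed for their function. The other two, Bcmo1 and Isx, were chosen by their CPM values in the genotype contrast of these same libraries, so their levels are described without a test. All 10 had more than 1 CPM (counts scaled by the authors to an adjusted library size) in all 7 libraries and passed the filter on low values.

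RNA was sequenced from duodena of male mice on a high-fat diet (HFD), 1 library per mouse. The 3 controls were Ppara lox/lox littermates, and the 4 Ppara I-KO mice carried the same floxed Ppara alleles together with Villin-Cre, which is expressed in the intestinal epithelium. Floxed Ppara was thus common to both groups, whereas the Cre transgene was present only in I-KO mice. According to the labels the mice had no food for 6 h and were refed for 6 h before sacrifice, while the methods of the study give a shorter fast unless otherwise specified. The labels give neither the diet nor the age. PPARα is a nuclear receptor activated by fatty acids, which binds DNA as a dimer with RXR.

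Mammals make vitamin A from provitamin A carotenoids of the diet, and the enterocyte is a main site of this conversion. The scavenger receptor SR-BI, encoded by Scarb1, takes up carotenoids, and the oxygenase BCO1, encoded by Bcmo1, cuts β-carotene at its centre into retinaldehyde. Retinaldehyde is bound by the cellular protein encoded by Rbp2, reduced to retinol, esterified by LRAT and exported in chylomicrons, or oxidised to retinoic acid, the ligand of the RAR receptors. The homeobox factor ISX is induced by retinoic acid in the intestine and represses Bcmo1 and Scarb1, which closes a feedback loop on vitamin A production.

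Between 20741309 and 25888320 reads per library fell on the listed genes, as read from the step of 1 read in the low values. Ppara itself had 49.3 to 63.2 CPM in lox/lox libraries and 33.05 to 47.5 CPM in I-KO replicates 1 to 3, but 69.9 CPM in I-KO replicate 4, above every lox/lox library. Because such a total also counts exons that were not floxed and cells that lack Cre, it is no check of the deletion. Summed enterocyte markers were at 57810 to 68470 CPM in lox/lox and 56760 to 74650 CPM in I-KO libraries, with all 10 genes of the list present, and the ileal transporter Slc10a2 was at 0.51 CPM or less. Transcripts of pancreatic acinar cells, 13 of 15 listed genes, summed to 430.3 CPM in I-KO replicate 1 and to 97.3 CPM in lox/lox replicate 2, against 27.2 to 42.7 CPM in the other 5 libraries. Without this pair of libraries the log2 fold change (I-KO minus lox/lox) of Stra6 was -0.43 in place of -0.12 and that of Rbp2 was -0.12 in place of -0.04, and neither passed the test. At an adjusted p of 0.05 by limma, 4 of the 13399 genes tested were called between genotypes (0.0299%).

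The promoters of Bcmo1 and Rbp2 are shown because both hold a match to a direct repeat of AGGTCA with any 1 base between its copies, the form of element that dimers of PPARα or other nuclear receptors with RXR are known to bind. The sequences are the 250 bases before the RefSeq start site on GRCm38.p6, both on the plus strand. They lie at chr8:117095615-117095864 for Bcmo1 and chr9:98490287-98490536 for Rbp2. In the GENCODE gene model, used here for gene coordinates, Rbp2 begins at 98486115, so its printed sequence lies inside that model. Capitals mark the best match, which in both promoters lies on the strand opposite to the gene.
Bcmo1: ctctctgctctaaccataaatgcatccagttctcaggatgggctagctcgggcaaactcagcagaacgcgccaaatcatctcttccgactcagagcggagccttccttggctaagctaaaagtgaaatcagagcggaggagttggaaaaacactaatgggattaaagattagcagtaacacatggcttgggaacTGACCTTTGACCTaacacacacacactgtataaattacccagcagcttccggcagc
Rbp2: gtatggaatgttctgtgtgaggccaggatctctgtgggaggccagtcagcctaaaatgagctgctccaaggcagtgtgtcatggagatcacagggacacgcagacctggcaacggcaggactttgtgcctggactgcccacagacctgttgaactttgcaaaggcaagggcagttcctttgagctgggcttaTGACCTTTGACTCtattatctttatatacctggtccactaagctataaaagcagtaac
In Bcmo1 the repeat was exact, read as TGACCTTTGACCT from 56 to 44 bases before the start. In Rbp2 it was read as TGACCTTTGACTC from 58 to 46 bases before the start, with 2 mismatches among its 12 fixed letters. Both strands of 32851 RefSeq windows were searched, each reaching from 250 bases before to 50 bases after a start site. Of these windows 13 held the exact repeat (0.0396%) and 1268 held it with up to 2 mismatches (3.86%), while the single half-site AGGTCA, which is part of the repeat, stood in 16.3%.

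RefSeq windows were found for 9 of the 10 genes, at 17 start sites, and none was given for Scarb1. Besides Bcmo1 and Rbp2, 1 start site of Bco2 held a match with 2 mismatches, ATGTCAAAGGTTA, from 168 to 156 bases before the start. The windows of Isx, Lrat, Rdh7, Dhrs3, Aldh1a1 and Stra6 held no match with up to 2 mismatches, which says only that these letters are not in these windows. Of the 13 genes with the exact repeat, 5 were tested. The log2 fold change, I-KO minus lox/lox, was 1.97 for Bcmo1, 0.11 for Igsf23, 0.04 for Apol7c, -0.01 for Srp54a and -0.04 for Isca1. Srp54c, a near-identical copy of Srp54a, also holds the repeat. The window of Isca1 overlaps that of Etohd2, another of the 13 genes, so both may hold the same copy of the repeat. Bcmo1 was picked for its values, and a match describes the sequence without showing that a factor binds there.

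Bcmo1 (chromosome 8, 117095854 to 117133720, plus strand of GRCm38) had lox/lox values of 10.5, 5.10 and 14.9 CPM, in the order of replicates 1 to 3. Its I-KO values, in the order of replicates 1 to 4, were 54.9, 51.0, 15.9 and 54.4 CPM. All 4 I-KO libraries were above all 3 lox/lox libraries, but the distance between the groups was only 1.0 CPM, because I-KO replicate 3 lay beside lox/lox replicate 3. The 300 reads of I-KO replicate 3 give a 95% counting interval of 14.1 to 17.8 CPM, and the 379 reads of lox/lox replicate 3 one of 13.4 to 16.5 CPM. These intervals cover counting error only and overlap. The other 3 I-KO libraries, with 1146 to 1315 reads, were at least 3.21-fold above I-KO replicate 3.

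Bcmo1 averaged 10.2 ± 4.90 CPM (SD, n = 3) in controls against 44.0 ± 18.8 CPM (SD, n = 4) in I-KO mice, a ratio of 4.33. Without I-KO replicate 3 the I-KO mean was 53.4 ± 2.12 CPM (SD, n = 3). The log2 fold change on the log2(CPM + 1) scale, which understates changes of low genes, was 1.97, and 2 of the 13399 genes had a larger positive value. It was 1.43 without the pair of libraries that held pancreatic transcripts, 1.58 without lox/lox replicate 2 and 2.39 without I-KO replicate 3. Among lox/lox libraries alone Bcmo1 spanned 2.92-fold, and its SD within genotypes, 0.79 on the log2 scale, exceeded that of 99.6% of the genes tested.

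Isx (chromosome 8, 74873173 to 74893506, plus strand) was at 153.2, 153.6 and 129.3 CPM in the control libraries. The I-KO libraries, again by replicate number, had 96.9, 118.8, 115.9 and 85.4 CPM. All I-KO libraries were below all lox/lox libraries, with 10.4 CPM between the groups. Control mice averaged 145 ± 13.9 CPM (SD, n = 3) against 104 ± 15.9 CPM (SD, n = 4) in I-KO mice, a ratio of 0.717. On the log2 scale the difference was -0.48, and 70 genes had a more negative one. This value lay between -0.57 and -0.39 under 15 alternative settings.

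Bcmo1 and Isx were the 2 of the 10 genes whose groups did not overlap, and they were chosen for that contrast. Over all genes tested, 6.19% had groups without overlap, 2.91% with higher and 3.28% with lower I-KO values. With values rescaled to equal column totals, Bcmo1 of I-KO replicate 3 fell below that of lox/lox replicate 3, and the number of genes without overlap was 1. Markers of smooth muscle and fibroblasts summed to 1305 to 1535 CPM in lox/lox and 1389 to 1815 CPM in I-KO libraries, so the duodenal RNA was not of epithelium alone. All 10 of these markers had higher means in I-KO mice, as had 6784 of the 13399 genes tested. None of the 10 passed by limma, and 9 were highest in I-KO replicate 1. In such bulk samples fewer cells of a type cannot be told apart from less RNA per cell.

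**Figure D1:**
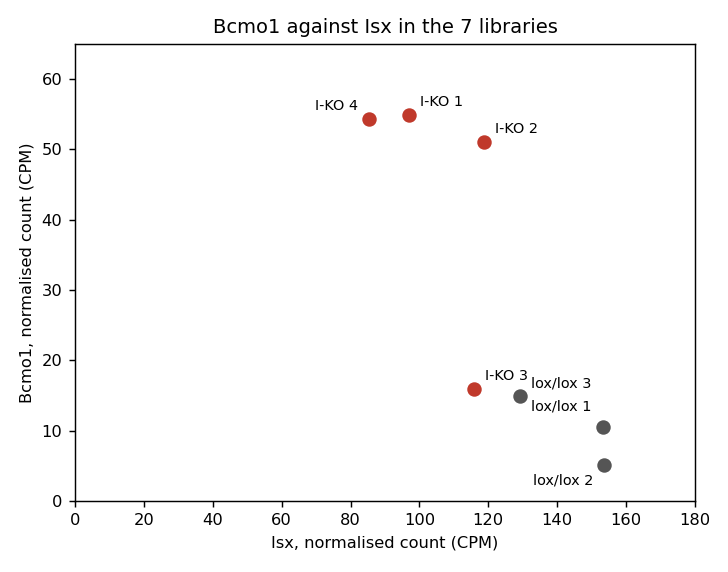
Normalised counts (CPM) of Bcmo1 on the vertical axis against Isx on the horizontal axis in each of the 7 libraries, with lox/lox libraries in grey and I-KO libraries in red. I-KO replicates 1, 2 and 4 sit between 50.99 and 54.89 CPM of Bcmo1, whereas I-KO replicate 3, at 15.89 CPM, sits beside lox/lox replicate 3 at 14.89 CPM.

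Read side by side, the order of the libraries in Bcmo1 was nearly the reverse of their order in Isx. Among lox/lox libraries it was the full reverse. In the I-KO group, replicates 1 and 4 and replicates 2 and 3 each stood exchanged. Both genes were picked for their genotype contrast, so much of this order follows from that choice, and a relation between them was not tested. I-KO replicates 2 and 3 were almost equal in Isx, at 118.8 and 115.9 CPM, a ratio of 1.02, but differed 3.21-fold in Bcmo1. The plot of Bcmo1 against Isx shows this pair one above the other. Expressed as a percentage of Isx in the same library, Bcmo1 amounted to 6.87%, 3.32% and 11.5% in lox/lox replicates 1 to 3 and to 56.6%, 42.9%, 13.7% and 63.6% in I-KO replicates 1 to 4. Against Bco2, the other carotenoid oxygenase, Bcmo1 stood at 5.36% to 14.1% in lox/lox and at 15.2% to 57.9% in I-KO libraries.

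The genes whose pattern over the 7 libraries was most like that of Bcmo1 were Rasl2-9, Glt25d1, Fgfr4, Tbc1d2 and Hdac1, with a Pearson r on log2(CPM + 1) between 0.94 and 0.99. Glt25d1 reached at most 36.7 CPM in lox/lox and at least 39.1 CPM in I-KO libraries, with its lowest I-KO value also in replicate 3. Rasl2-9 was low, at 0.60 to 0.79 CPM in lox/lox and 0.85 to 1.15 CPM in I-KO libraries, again lowest of the I-KO group in replicate 3. It exceeded 1 CPM only in I-KO replicates 1, 2 and 4, where Bcmo1 was high, and so passed the filter only through them. Most like Isx were Cr1l, Phospho2, Mfsd2a, Thap1 and Sgpp2, with r between 0.98 and 0.99. The groups of these 5 genes did not overlap, against 6.19% of all genes tested without overlap. Mfsd2a, a transporter of lysophosphatidylcholine, had 48.4 to 57.4 CPM in lox/lox and 35.5 to 47.8 CPM in I-KO libraries. These genes are the highest of 13399 correlations over 7 libraries that share the genotype contrast, and are given as a description. Their group differences, and the low I-KO replicate 3 of those like Bcmo1, follow largely from that choice.

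None of the 8 genes listed for their function passed the threshold by limma (adjusted p between 0.954 and 0.989), where 0.0224% of all genes tested were called higher and 0.00746% lower in I-KO mice. None had an unadjusted p under 0.05 either, against 4.74% of all genes tested, 2.32% higher and 2.42% lower. Their log2 fold changes lay between -0.46 for Aldh1a1 and 0.14 for Rdh7, with a median of -0.03, against 0.0017 over all genes tested. By mean, 3 were higher and 5 were lower in I-KO mice, and the groups of all 8 overlapped. The 95% confidence intervals reached a median of 0.30 to either side on the log2 scale. The limma p-values set a difference in means against the spread among these mice, which limma moderates with the spread of all genes tested.

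**Figure D2:**
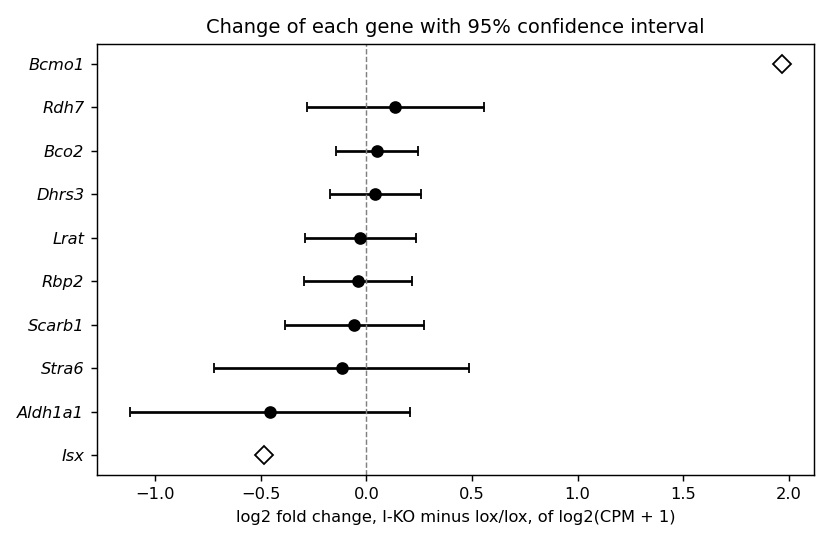
Log2 fold change, I-KO minus lox/lox, of log2(CPM + 1) for each gene, with 95% confidence intervals from limma for the 8 genes listed for their function. Open diamonds mark Bcmo1 at 1.97 and Isx at -0.48, which were picked for their values and have no interval, while the intervals of the other 8 genes all include 0.

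Scarb1 (chromosome 5, 125277087 to 125341094, minus strand), which takes up carotenoids and is a known target of ISX, was at 49.4, 42.9 and 33.2 CPM in lox/lox libraries and 37.0, 45.8, 35.1 and 41.5 CPM in I-KO libraries. All I-KO values lay within the lox/lox range. Scarb1 averaged 41.8 ± 8.19 CPM (SD, n = 3) in controls against 39.9 CPM in I-KO mice, with an SD of 4.795 (n = 4). Its log2 fold change was -0.06, with a 95% interval from -0.39 to 0.27 (limma, adjusted p = 0.980; exact permutation test, p = 0.771).

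Bco2 (chromosome 9, 50533087 to 50555181, minus strand), the mitochondrial oxygenase that cuts carotenoids off centre, was at 99.03, 95.2 and 105.7 CPM in lox/lox libraries and 94.8, 104.1, 104.5 and 111.1 CPM in I-KO libraries. The groups interleaved, and the control mean of 99.97 ± 5.27 CPM (SD, n = 3) stood against 103.6 ± 6.71 CPM (SD, n = 4). The log2 fold change of 0.05 had an interval from -0.14 to 0.24, that is between 0.905-fold and 1.19-fold (limma, adjusted p = 0.975; exact permutation test, p = 0.486). Bco2 was the steadiest of the 10 genes, with an SD within genotypes of 0.09 on the log2 scale, whereas Bcmo1 was the most variable. Exon sequence of Bco2 overlaps that of 1 gene on the opposite strand, Gm47077, to an extent that was not measured. Whether reads were counted by strand is not given in the sources used here.

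Rbp2 (chromosome 9, 98486115 to 98509781, plus strand), the cellular retinol-binding protein of the enterocyte, was at 3005, 2833 and 2917 CPM in lox/lox libraries. In I-KO libraries it was at 3205, 2530, 3193 and 2515 CPM. The I-KO libraries formed a high pair, replicates 1 and 3, above the lox/lox range and a low pair, replicates 2 and 4, below it. Summed enterocyte markers were ordered likewise, at 74140 and 74650 CPM in replicates 1 and 3 against 56760 and 60030 CPM in replicates 2 and 4, and their part in the spread of Rbp2 was not tested. Means were 2918 ± 86.1 CPM (SD, n = 3) in controls against 2861 ± 391 CPM (SD, n = 4), and the log2 fold change was -0.04 with an interval from -0.29 to 0.22 (limma, adjusted p = 0.984; exact permutation test, p = 0.657).

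Lrat (chromosome 3, 82892579 to 82903973, minus strand), which esterifies retinol for chylomicrons, was at 64.5, 50.3 and 61.3 CPM in lox/lox libraries and 49.9, 58.6, 57.3 and 63.8 CPM in I-KO libraries. The ranges nearly coincided. The difference was -0.03 on the log2 scale, with an interval from -0.29 to 0.23 (limma, adjusted p = 0.989; exact permutation test, p = 0.771).

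Rdh7 (chromosome 10, 127884028 to 127888817, minus strand), a short-chain dehydrogenase of the retinol dehydrogenase family, was at 91.7, 105.3 and 131.2 CPM in lox/lox libraries and 111.9, 96.4, 113.5 and 164.2 CPM in I-KO libraries. I-KO replicate 4 was above all lox/lox libraries and the other 3 lay within their range. On the log2 scale Rdh7 differed by 0.14, with an interval from -0.28 to 0.56 (limma, adjusted p = 0.971; exact permutation test, p = 0.6). Of the windows of 100 bases in its transcripts, 4.05% also occur in Rdh1, Rdh16f1 or Rdh18-ps, so part of its reads could be shared and its level is uncertain to that extent. The other 9 genes had at most 0.0203% of such windows.

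Dhrs3 (chromosome 4, 144892827 to 144928209, plus strand), a reductase of retinaldehyde that retinoic acid is known to induce, was at 40.6, 41.7 and 47.4 CPM in lox/lox libraries and 48.5, 40.7, 43.0 and 46.2 CPM in I-KO libraries. Only I-KO replicate 1 left the lox/lox range, by about 1 CPM. For Dhrs3 the log2 fold change was 0.04, with an interval from -0.17 to 0.26 (limma, adjusted p = 0.978; exact permutation test, p = 0.6).

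Aldh1a1 (chromosome 19, 20492715 to 20643465, plus strand), which oxidises retinaldehyde to retinoic acid, was at 150.8, 166.1 and 306.8 CPM in lox/lox libraries. It was at 126.1, 109.7, 134.5 and 227.0 CPM in I-KO libraries. I-KO replicates 1 to 3 were below all lox/lox libraries, and 1 library of each genotype, lox/lox replicate 3 and I-KO replicate 4, stood far above the rest of its group. Controls averaged 207.9 ± 86.0 CPM (SD, n = 3) against 149.3 ± 52.8 CPM (SD, n = 4) in I-KO mice, a ratio of 0.718. Its log2 fold change of -0.46 was the largest of the 8, but the interval reached from -1.12 to 0.21 (limma, adjusted p = 0.954; exact permutation test, p = 0.314). It was -0.14 without lox/lox replicate 3 and -0.68 without I-KO replicate 4.

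The same 2 libraries stood high in other genes. Cubn, encoding an endocytic receptor used here as a marker of distal position, was at 151.8 CPM in lox/lox replicate 3 and 167.0 CPM in I-KO replicate 4, against 33.6 to 81.8 CPM in the other 5 libraries. Cybrd1 and Slc40a1, which serve duodenal iron uptake and export, were at 16.9 and 49.3 CPM in lox/lox replicate 3 and at no less than 56.1 and 103.3 CPM in the other libraries, I-KO replicate 4 included. Over the whole lists, summed distal markers, of which 4 of 6 were listed in the table, were at 142.8 to 261.6 CPM in lox/lox and 147.6 to 243.7 CPM in I-KO libraries, with the highest value of each group in these libraries. Summed proximal markers, 7 of 7, were at 1805 to 2788 CPM in lox/lox and 2095 to 3121 CPM in I-KO libraries, and were also highest in these libraries, where Lct, encoding lactase, had 2445 and 2610 CPM. Guca2a of the distal list was at 94.3 CPM in lox/lox replicate 3, within the range of its group, and lowest of all libraries in I-KO replicate 4, at 66.7 CPM. Gata4 and Pdx1 of the proximal list were also lowest of all libraries in lox/lox replicate 3, with Gata4 at 141.24 CPM. Onecut2 was lowest of its group there, and Osr2 of the distal list was highest of all libraries, at 15.01 CPM. Lct made up 2445 of the 2788 CPM of the proximal sum in that library, so that sum mostly followed Lct. Lox/lox replicate 3 thus read as less proximal by most of these markers, but not by Lct or Guca2a. The lists gave no single direction for I-KO replicate 4. The part of position along the intestine in the spread of Aldh1a1 was not tested.

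Stra6 (chromosome 9, 58063788 to 58153996, plus strand), the receptor through which cells take up retinol from its plasma carrier, was the lowest of the 10 genes. It was at 3.95, 3.60 and 4.83 CPM in lox/lox libraries and 6.75, 2.55, 4.29 and 2.36 CPM in I-KO libraries, from 57 to 141 reads per library. The I-KO values spread to both sides of the lox/lox range. The fitted difference was -0.12 on the log2 scale, with an interval from -0.72 to 0.49 (limma, adjusted p = 0.978; exact permutation test, p = 0.8).

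**Figure D3:**
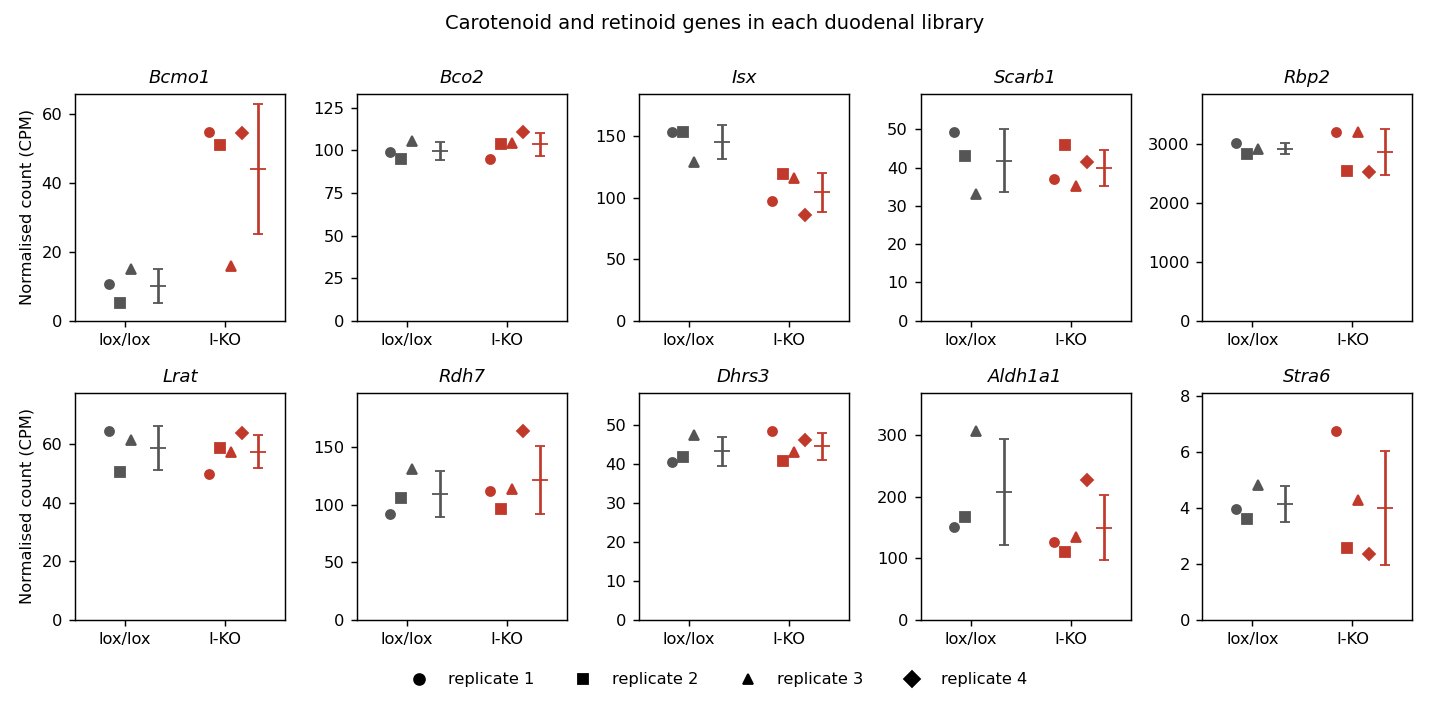
Normalised counts (CPM) of the 10 genes in each library, with 1 panel per gene, its vertical axis starting at 0, and with the mean and SD drawn beside the 3 lox/lox (grey) and 4 I-KO (red) points. Bcmo1 and Isx are the genes without overlap between the groups, and lox/lox replicate 3 and I-KO replicate 4 are the highest Aldh1a1 libraries of their groups, at 306.8 and 227.0 CPM.

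Per kilobase of principal transcript, the mean lox/lox level of Rbp2 was 3634 CPM per kb, 41.2-fold above the next gene. Aldh1a1 at 88.2, Isx at 81.1, Rdh7 at 65.2 and Bco2 at 47.2 CPM per kb came next. Dhrs3 at 18.5, Scarb1 at 16.6, Lrat at 10.96, Bcmo1 at 4.35 and Stra6 at 1.34 CPM per kb closed the order. Neighbours whose lox/lox libraries overlapped, and whose order is therefore not settled, were Aldh1a1 and Isx, Isx and Rdh7, and Dhrs3 and Scarb1. In I-KO libraries the mean of Bcmo1 was 18.8 CPM per kb, but its libraries spanned 6.80 to 23.5 CPM per kb and overlapped those of Dhrs3, Scarb1 and Lrat, so its place among them is not settled. The I-KO mean of Isx was 58.1 CPM per kb, beside 72.4 for Rdh7 and 63.3 for Aldh1a1, and the libraries of these genes overlapped as well.

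**Figure D4:**
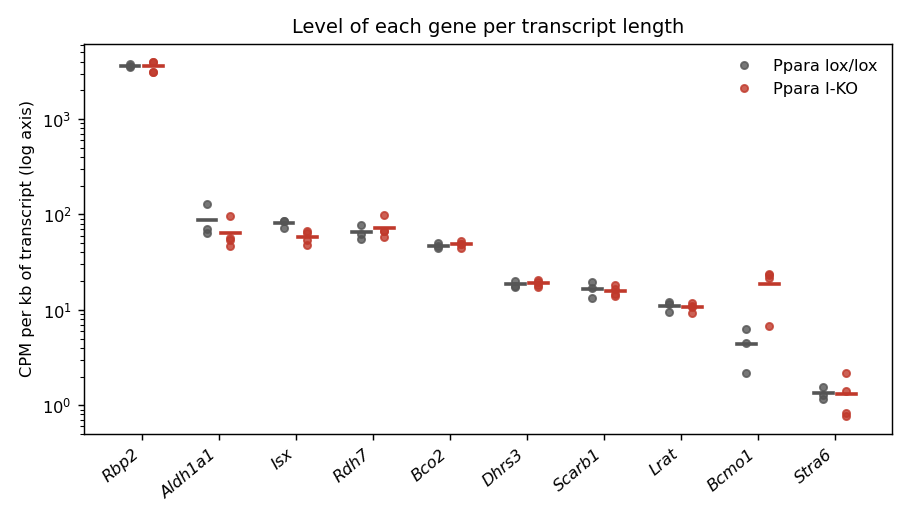
CPM per kilobase of principal transcript on a log axis for the 10 genes, with 1 point per library and a bar at the mean of each genotype. Rbp2 stands 41.2-fold above the next gene in lox/lox libraries, and the mean of Bcmo1 moves from 4.35 CPM per kb in lox/lox to 18.8 CPM per kb in I-KO libraries.

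The remaining genes of retinoid metabolism were taken from 8 lists ordered by role, with 51 genes, of which 40 were in the table and 39 passed the filter. None passed the threshold by limma, and 1 higher and 4 lower genes had an unadjusted p under 0.05, against 2.32% higher and 2.42% lower over all genes tested. Of the 39 genes, 15 were higher and 24 lower by mean, the log2 fold changes ranging from -0.82 to 0.32 around a median of -0.05. Groups did not overlap for 6 of them, 2 higher and 4 lower, against 6.19% of all genes tested. Median log2 fold changes of the lists ran from -0.16 to 0.04.

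Among genes of uptake and efflux, none of 6 passed. Npc1l1, the sterol importer of the brush border, was at 1165 ± 100.7 CPM (SD, n = 3) in controls and 1481 ± 366 CPM (SD, n = 4) in I-KO mice, a log2 fold change of 0.32. Abcg5, a subunit of the sterol exporter, was at 227.5 ± 30.1 and 258 ± 43.7 CPM. Of the binding proteins 5 of 9 were tested and none passed, with Fabp5 at 8.94 ± 1.79 and 8.30 ± 0.878 CPM and Rbp7 at 8.83 ± 0.685 and 7.83 ± 0.994 CPM. Crabp1, below the filter and not tested, had 0.43 to 0.44 CPM in lox/lox and 0.08 to 0.34 CPM in I-KO libraries. In the list of esters and saturation, Dgat1, which also esterifies retinol, was at 835.5 ± 83.5 and 926 ± 88.4 CPM, and Lipe, a lipase of retinyl esters, was at 152.5 ± 14.4 and 150.3 ± 21.8 CPM.

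Retsat, which saturates retinol to dihydroretinol, was at 123.5, 120.1 and 209.5 CPM in lox/lox libraries and 84.5, 83.5, 90.0 and 102.2 CPM in I-KO libraries. All I-KO values were below all lox/lox values, and lox/lox replicate 3 was again the highest library. Its log2 fold change was -0.69 (SE 0.19), and it did not pass over all genes (limma, adjusted p = 0.791). The exact permutation test, not adjusted, gave p = 0.0286, the smallest it can give with 35 splits of 3 against 4 mice. Retsat, like Akr1b8 below, was named because its groups did not overlap, so a small permutation p follows from that choice and adds no support. For genes of the role lists this p is given only where the groups did not overlap. The values for Dhrs4, Aldh1a7, Aldh1a3 and Rara below therefore add no support either. Over the alternative settings the log2 fold change of Retsat lay between -0.83 and -0.44.

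All 6 genes of the list of retinaldehyde reduction had lower means in I-KO mice, with log2 fold changes from -0.82 to -0.03. None passed by limma, and 6615 of the 13399 genes tested had lower means. Dhrs3, a retinaldehyde reductase among the 10 genes and so not in this list, had a log2 fold change of 0.04. Akr1b8, an aldo-keto reductase, was at 5.83, 7.94 and 4.64 CPM in lox/lox libraries and 2.49, 3.89, 2.44 and 3.27 CPM in I-KO libraries, so that every I-KO library was below every lox/lox library. Its log2 fold change was -0.82 (SE 0.18; limma, adjusted p = 0.572; exact permutation test, p = 0.0286). Dhrs4 was at 94.2 to 116.1 CPM in lox/lox and 74.2 to 93.3 CPM in I-KO libraries, with a log2 fold change of -0.35 (limma, adjusted p = 0.887; exact permutation test, p = 0.0571). Akr1b7 was at 401 ± 108 and 346 ± 65.05 CPM. Of the 9 oxidising enzymes tested, 6 had lower means and none passed, with Adh1 at 694 ± 27.8 and 678 ± 116 CPM and Rdh9 at 66.4 ± 7.96 and 66.0 ± 9.23 CPM.

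**Figure D5:**
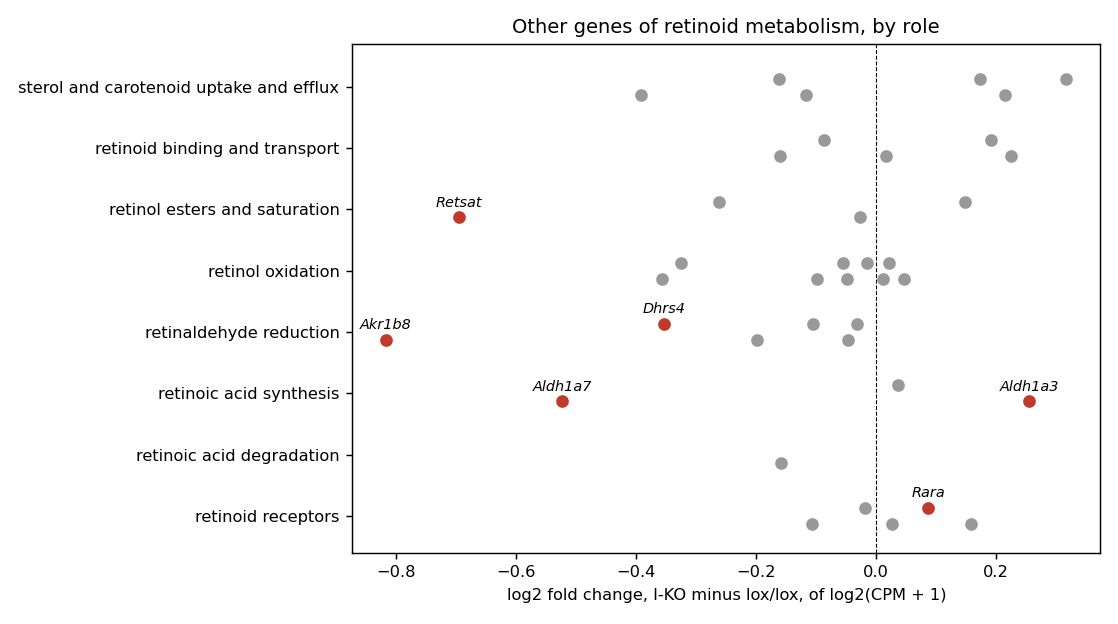
Log2 fold change, I-KO minus lox/lox, of log2(CPM + 1) for the 39 tested genes of 8 role lists, 1 row of points per role, with genes whose groups did not overlap in red and named. Retinaldehyde reduction is the list of several genes with all its points, 6 of 6, to the left of 0, and no gene shown passed an adjusted p of 0.05. Dhrs3, another retinaldehyde reductase, is not in this list and was at 0.04.

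Aldh1a7, a close relative of Aldh1a1, was at 35.1, 33.5 and 43.1 CPM in lox/lox libraries and 23.5, 26.0, 20.7 and 33.2 CPM in I-KO libraries. Its groups did not overlap, and the log2 fold change was -0.52 (limma, adjusted p = 0.830; exact permutation test, p = 0.0571). Like Aldh1a1 it was highest in lox/lox replicate 3 and, within the I-KO group, in replicate 4, although only 1 of its windows of 100 bases is shared with Aldh1a1. Aldh1a3, another enzyme of retinoic acid synthesis, was at 48.1, 58.5 and 53.4 CPM in lox/lox libraries and 58.8, 60.3, 67.6 and 68.6 CPM in I-KO libraries, higher without overlap and with a log2 fold change of 0.26 (limma, adjusted p = 0.954; exact permutation test, p = 0.0571).

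Cyp26b1, the 1 gene of retinoic acid degradation listed in the table, was at 9.58 ± 1.69 CPM (SD, n = 3) in controls against 9.34 ± 5.22 CPM (SD, n = 4) in I-KO mice. Of the receptors, Rxra, the partner of PPARα and RAR, was at 196 ± 7.53 and 199.5 ± 8.06 CPM. Rara was at 40.2 to 42.2 CPM in lox/lox and 42.2 to 45.6 CPM in I-KO libraries, where the groups were next to each other without overlap and the log2 fold change was 0.09 (limma, adjusted p = 0.954; exact permutation test, p = 0.0571). In promoter windows, which were found for 31 of these genes, none held the exact repeat and 4 held it with up to 2 mismatches.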

How the data were processed

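Duodenal RNA of 3 Ppara lox/lox and 4 Ppara I-KO mice was sequenced with 100 base single reads. The submitters' processing notes name FastQC 0.11.2, TopHat2 2.0.13, Picard 1.80, HTSeq 0.6.1, edgeR and mm10. The authors deposited signal values, counts scaled to an adjusted library size (CPM, 2 decimals), for 14795 genes, and 1 line without a gene name was dropped. One read was worth 0.0393 to 0.0530 CPM. All low values lay within the rounding of 0.005 CPM of whole reads, which gave the depths. In 5 libraries fewer than 95% of them lay within 0.1 of a step, a stricter limit that the rounding itself can exceed, and the values were tested as deposited with limma 3.58.1 in R 4.3.3 and not as counts. Log2(CPM + 1) was fitted for 13399 genes above 1 CPM in at least 3 libraries, with genotype as the only term and two-sided Benjamini-Hochberg adjusted p. Single genes were also compared by exact two-sided permutation over 35 splits. The fit was tested on simulated data. Alternatives were other scalings, no filter, a pseudocount of 0.5, an intensity trend, sample quality weights, an unadjusted p, a replicate block and libraries left out.

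Members and lists were chosen with earlier results of these data known. Named are the 10 genes, the 2 highest genes of each role list, genes past the threshold or without overlap, and the 5 most like Bcmo1 and Isx. Coordinates and lengths are from GENCODE M21 on GRCm38 (mm10) and promoters from RefSeq GRCm38.p6. The labels do not say whether replicate numbers pair mice, and the main fit did not pair them. Deviations of equal numbers 1 to 3 correlated at -0.01, 0.18 and -0.01, and those of unlike numbers at -0.35 to 0.28. With so few libraries these values cannot settle whether mice were paired. The search for libraries apart left out 1 gene of the role lists, which is not reported here.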

Additional observations from a re-analysis of the deposited data

Results flagged for a closer look

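In the I-KO group, 2 of 56 quantities searched had 1 library apart from the others, measured as its gap to the nearest library over the range of the group and held against Dixon's 95% limit. Chance alone gives about 1 in 20, here 2.8. Bcmo1 and Isx, picked for their values, were not searched. Rbp7, a retinoid-binding protein, was at 9.3 CPM in I-KO replicate 4, against 7.14 to 7.5 CPM, a gap of 0.833 of the range. The sum of the pancreatic acinar markers was 430.3 CPM in I-KO replicate 1, against 27.16 to 42.66 CPM, a gap of 0.962. All 13 acinar markers and 9 of 10 markers of smooth muscle and fibroblasts were highest in that library.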

How the results depend on the processing

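No member tested passed under any of 16 alternatives (limma, adjusted p between 0.628 and 0.9999). The number of all genes called, 4, was 3 to 5 with single libraries left out, 635 at an unadjusted p of 0.05, and 12 with weights for sample quality, which were chosen after seeing the data. The number of pathway genes called, 0, was 5 at an unadjusted p of 0.05. Members without overlap numbered 1 with column totals and 2 or 3 with single libraries left out. Bco2 and Aldh1a1 kept their direction under 15 alternatives. Bcmo1 and Isx did so too, which is no support, as they were picked for their values in these same libraries. With single libraries left out, log2 fold changes of both signs were seen for Scarb1 (-0.211 to 0.0698), Rbp2 (-0.0965 to 0.0201), Lrat (-0.134 to 0.0423), Rdh7 (-0.0171 to 0.274), Dhrs3 (-0.000411 to 0.109) and Stra6 (-0.358 to 0.0442). Without both libraries holding pancreatic transcripts, Scarb1 was at 0.00285 and Dhrs3 at -0.0215, and with sample quality weights Lrat was at 0.0672. With the replicate number as a block, which leaves out I-KO replicate 4 in effect, Rbp2 was at 0.0201, Rdh7 at -0.0171 and Stra6 at 0.0442, and no member was called. The cause was not tested. Depth limits Stra6, whose lowest library had 57 reads.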

Other observations

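The pattern most opposite to Bcmo1 over the 7 libraries, looked for after the values had been seen, was that of Slc22a5, which encodes a carnitine transporter and is known as a PPARα target. Control values were 134.7, 140.5 and 133.1 CPM, and I-KO values, by replicate number, were 96.8, 104.8, 124.2 and 103.0 CPM. I-KO replicate 3, the library in which Bcmo1 was nearest to the lox/lox group, was also the I-KO library in which Slc22a5 was nearest to it. That likeness follows from picking Slc22a5 for its opposite pattern. Ppara, whose total is no check of the deletion, was at 47.5 CPM in I-KO replicate 3, against 33.05, 40.6 and 69.9 CPM in I-KO replicates 1, 2 and 4. The relation between these values was not tested.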
